A study of Mus musculus with 6 samples.

Results

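The chemokines and chemokine receptors of the mouse were described in 6 livers. Genes were taken by symbol (Ccl, Cxcl, Ccr or Cxcr followed by a number, with Cx3cl1, Cx3cr1, Xcl1 and Xcr1). Of the 52459 genes in the table of counts, 56 fit this rule and 55 are described here, 38 of them ligands and 17 receptors. These members were chosen with earlier results of these data known, so the set was not blind to the data. RNA-Seq was performed on whole livers of male Alb-Cre/Cas9 F1 mice on the C57BL6J strain, 8 months after birth. At 4 to 5 weeks of age every mouse had received by vein an AAV8 vector with a guide RNA under the U6 promoter, a control guide in 3 mice (sgCtrl, mice 5.1, 7.1 and 7.2) and a guide against Prdx2, a peroxide-removing enzyme, in the other 3 (sgPrdx2, mice 1.1, 1.3 and 3.2). Both groups were injected with 100 mg/kg diethylnitrosamine (DEN), a carcinogen, 3 weeks after the vector and were fed, from 1 week after DEN, a choline-deficient high-fat diet (CDAHFD) for 6 months, so that both groups were diseased livers and no liver without DEN and diet was analysed here. Cas9 depended on a Cre recombinase driven by the albumin promoter, which is active in hepatocytes. Leukocytes, which carry most chemokine receptors, are outside that promoter, and the study describes hepatocytes that kept PRDX2 in the edited livers.

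Chemokines are small secreted proteins that set up gradients along which leukocytes move. They are named for the spacing of conserved cysteines (CC, CXC, CX3C and XC), and their receptors are G protein-coupled receptors named for the ligand class they bind. In the injured liver, hepatocytes, Kupffer cells, stellate cells and endothelial cells make chemokines, and monocytes, neutrophils, T cells and NK cells that carry the matching receptors enter the tissue. In bulk RNA from whole liver, fewer cells of a type and less RNA per cell cannot be told apart.

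The total count per liver ranged from 37462102 to 56865293, and levels are given as normalized CPM, in which counts are divided by the size of the library after scaling by edgeR's TMM method. At this depth 3 counts stood for 0.0555 to 0.0921 CPM, which covers counting error only. Prdx2 RNA did not separate the groups, with 109, 117 and 132 CPM in the sgCtrl livers and 99.0, 112 and 149 CPM in the sgPrdx2 livers (exact permutation test, two-sided, p = 1, smallest possible p = 0.1), so the labels could not be checked by RNA of the targeted gene. The study reports from stained liver sections that PRDX2 protein was suppressed in hepatocytes of edited mice. It takes the islets that kept the protein as most likely not transduced. RNA of the hepatocyte marker Alb was present in all 6 livers, with a mean of 60214 CPM in sgCtrl and 117782 CPM in sgPrdx2 livers.

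Transcripts of 4 ligands and of 1 receptor fell in sgPrdx2 livers, and no member rose. Of the 55 genes, 41 passed the filter on low counts (30 ligands and 11 receptors), and 5 of the 41 had an adjusted p under 0.05 in edgeR's quasi-likelihood test, which is 12.2%, against 3.33% of the 17032 genes tested (1.54% lower and 1.79% higher). The 5 were the ligands Cxcl14, Ccl6, Cxcl2 and Ccl3 and the receptor Ccr1, all at 44.7% to 59.3% of the sgCtrl mean. This was 4 of 30 ligands (13.3%) and 1 of 11 receptors (9.09%). Ccl12 passed the filter through the sgCtrl livers alone, so its lower direction followed from the filter wherever it is counted below.

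The 5 calls depended on having all 6 livers. All 5 genes stayed lower with an unadjusted p under 0.05 in each of the 6 fits that left out 1 liver, with log2 fold changes from -1.34 to -0.70. The adjusted p passed the threshold for none of them without sgCtrl liver 5.1 or 7.2 or without sgPrdx2 liver 1.1 or 1.3, for Ccr1 alone without sgCtrl liver 7.1, and for Cxcl14 and Ccl6 without sgPrdx2 liver 3.2. In the 4 fits with no call among the members, no gene of the whole table was called by edgeR either, while 3114 to 3993 genes had an unadjusted p under 0.05. DESeq2 with all 6 livers called 9 members, the 5 above with Ccl2, Cx3cl1 and Ccr2 (lower) and Ccl27a (higher). It also called more of the whole table, 2066 of 14799 genes (14%), against 3.33% in edgeR.

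**Figure D1:**
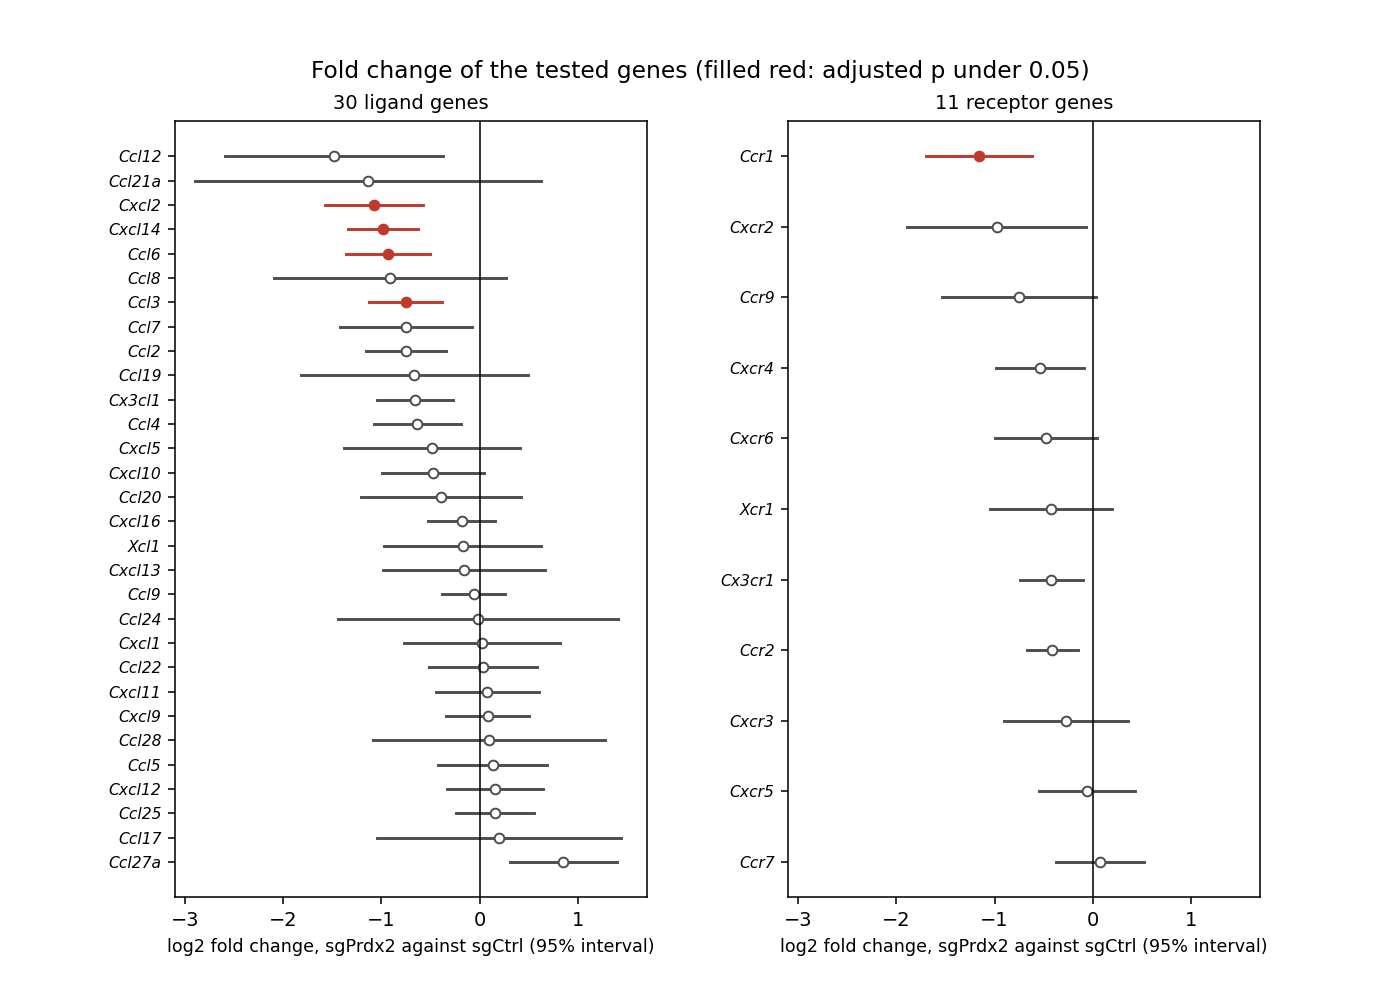
Log2 fold change of sgPrdx2 against sgCtrl livers (x axis) with its 95% interval for the 30 ligand genes and 11 receptor genes tested, in order of size, with filled red points for genes with an adjusted p under 0.05. Points of 20 ligands and 10 receptors lie below 0, and of the 11 genes above 0 all but Ccl27a move below 0 when libraries are scaled by total counts or by housekeeping genes.

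The direction of the members without regard to the threshold was recorded against that of all genes. Log2 fold changes were below 0 for 30 of the 41 members (73.2%) and for 51.7% of all genes tested, with medians of -0.43 and -0.02. Receptors were below 0 in 10 of 11 genes (90.9%, median -0.43), Ccr7 being the exception, and ligands in 20 of 30 (66.7%, median -0.29). The lowest sgCtrl liver was above the highest sgPrdx2 liver in 6 of 11 receptors (54.5%), in 9 of 30 ligands (30.0%, Ccl12 among them) and in 17.5% of all genes tested. The difference between receptors and ligands was not tested, as a score over chosen genes carries no p here. Scaling by total counts or by housekeeping genes placed 40 of 41 members below 0 but also moved the median of all genes to -0.39 and -0.38, and 30 and 29 members then lay below that median.

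Summed over members with TMM scaling, the receptors separated the groups and the ligands did not. The summed receptor level was 121, 105 and 101 CPM in sgCtrl and 80.5, 85.6 and 76.9 CPM in sgPrdx2 livers, or 109 ± 10.4 against 81.0 ± 4.41 CPM (SD, n = 3). Cx3cr1 and Ccr2 gave the most to this sum, with means of 38.4 and 30.2 CPM in sgCtrl and 28.6 and 22.6 CPM in sgPrdx2 livers. The summed ligand level was 850, 863 and 784 CPM in sgCtrl and 827, 786 and 710 CPM in sgPrdx2 livers, which overlapped. Scaled by total counts alone, the ligand sums did not overlap, so this contrast depended on the scaling. Cxcl12, the ligand of CXCR4 made by stromal and endothelial cells, supplied 39.8% of the ligand CPM in sgCtrl and 47.5% in sgPrdx2 livers. Without Cxcl12 the ligand sum was 500 ± 19.9 CPM in sgCtrl and 404 ± 24.9 CPM in sgPrdx2 livers (SD, n = 3), and the groups did not overlap. Leaving out Cxcl12 was chosen after its values were seen.

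Cxcl14, an epithelial chemokine of uninjured tissues, had the smallest p of the ligands. Its level was 37.01, 44.4 and 36.6 CPM in the sgCtrl livers and 18.8, 23.5 and 17.4 CPM in the sgPrdx2 livers. Each sgPrdx2 liver lay well under each sgCtrl liver, and the fall was 1.98-fold (log2 fold change -0.98, SE 0.15, adjusted p = 0.0358 in edgeR's quasi-likelihood test).

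**Figure D2:**
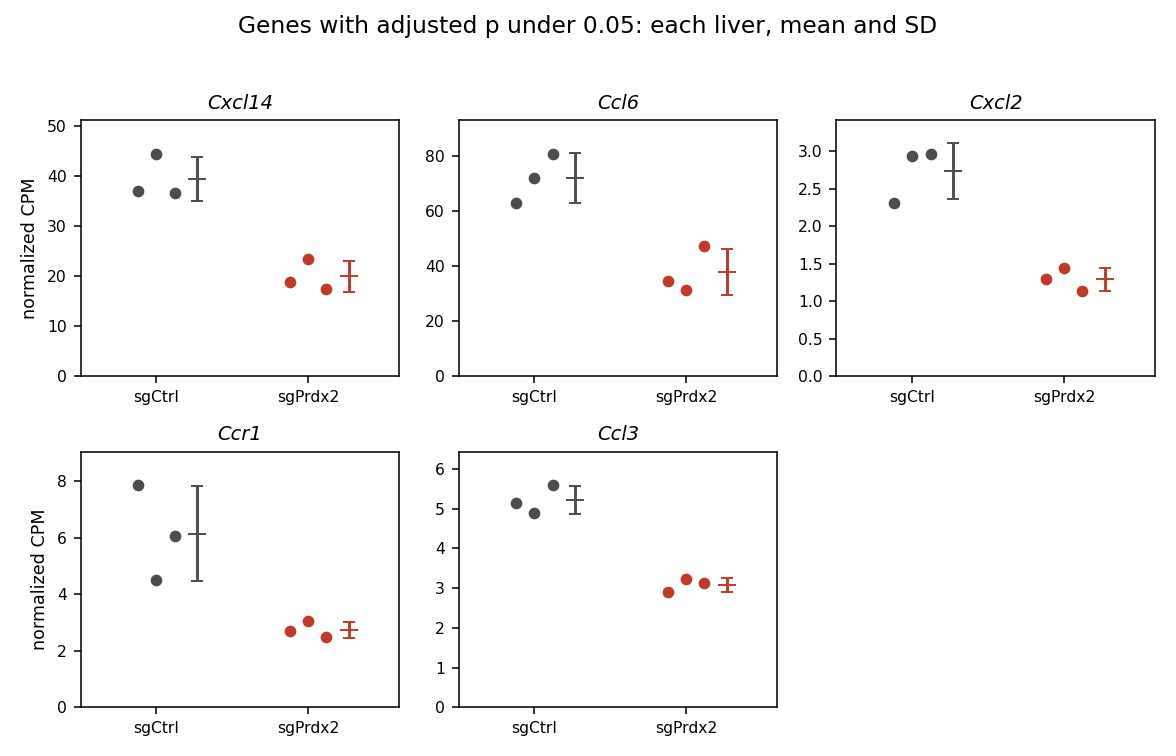
Normalized CPM (y axis, from 0) of the 5 genes with an adjusted p under 0.05 in each sgCtrl (grey) and sgPrdx2 (red) liver, with the mean and SD of 3 livers beside the points. In each of the 5 genes the 3 sgPrdx2 livers lie below the 3 sgCtrl livers, and as a ratio the groups come nearest in Ccl6, at 62.9 CPM in sgCtrl liver 5.1 and 47.2 CPM in sgPrdx2 liver 3.2.

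The inflammatory CC ligands Ccl3, Ccl4, Ccl5, Ccl6 and Ccl9, which draw monocytes, macrophages and T cells, split into those that fell and those that did not pass the test. Ccl6, a CCR1 ligand of myeloid cells, was at 62.9, 72.3 and 81.0 CPM in sgCtrl and 34.7, 31.4 and 47.2 CPM in sgPrdx2 livers, a 1.91-fold fall (log2 fold change -0.93, SE 0.18, adjusted p = 0.0455). Ccl3, also known as macrophage inflammatory protein 1 alpha, was at 5.14, 4.89 and 5.59 CPM in sgCtrl and 2.89, 3.24 and 3.13 CPM in sgPrdx2 livers, a 1.69-fold fall (log2 fold change -0.75, SE 0.16, adjusted p = 0.0491). The livers did not overlap for either gene. Ccl4, also known as macrophage inflammatory protein 1 beta, was at 3.06, 3.36 and 3.77 CPM in sgCtrl and 1.91, 2.26 and 2.40 CPM in sgPrdx2 livers, without overlap and with an adjusted p of 0.101 (log2 fold change -0.64, SE 0.19). Ccl9, which like Ccl6 acts on CCR1, had overlapping levels of 101, 117 and 93.6 CPM in sgCtrl and 97.2, 92.9 and 108 CPM in sgPrdx2 livers. The log2 fold change of -0.06 had a 95% interval from -0.38 to 0.26, which leaves out a fall of the size of that of Ccl6. Ccl5, a T cell product, overlapped as well, with 18.7, 11.9 and 18.9 CPM in sgCtrl and 15.0, 15.6 and 23.8 CPM in sgPrdx2 livers (log2 fold change 0.13, 95% interval -0.43 to 0.69).

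These 5 ligands lie together on chromosome 11 (GRCm38, chr11:83525778-83664683, from Ccl5 to Ccl4), and Ccl9 and Ccl6 are adjacent in it. The bases before the start of both genes are shown because their transcripts, side by side in the genome, gave different results in the same livers. They are the 250 bases upstream of the RefSeq start in GRCm38.p6, on the minus strand for both, chr11:83593088-83593337 for Ccl6 and chr11:83578637-83578886 for Ccl9, with matches to the NF-kB and AP-1 motifs in capitals.
Ccl6: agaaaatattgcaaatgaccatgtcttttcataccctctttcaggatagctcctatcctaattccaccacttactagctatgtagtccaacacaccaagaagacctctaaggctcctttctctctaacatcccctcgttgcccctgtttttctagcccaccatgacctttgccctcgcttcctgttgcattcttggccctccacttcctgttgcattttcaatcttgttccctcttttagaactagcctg
Ccl9: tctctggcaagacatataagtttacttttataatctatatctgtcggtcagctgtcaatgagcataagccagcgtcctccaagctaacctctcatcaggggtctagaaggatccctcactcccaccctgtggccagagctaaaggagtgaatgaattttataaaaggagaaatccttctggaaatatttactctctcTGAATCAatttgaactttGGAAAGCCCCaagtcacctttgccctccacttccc
The Ccl9 stretch holds a match to each of the motifs and the Ccl6 stretch holds none. The ratio of the 2 transcripts within each liver, which needs no scaling between libraries, was 62.5, 62.0 and 86.6 Ccl6 counts per 100 Ccl9 counts in sgCtrl and 35.7, 33.8 and 43.7 in sgPrdx2 livers. This pair and the pairs below were chosen after their values were seen and have no test.

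The ligands of CXCR2, which draw neutrophils, did not move as a group. Cxcl2 was at 2.31, 2.94 and 2.97 CPM in sgCtrl and 1.299, 1.44 and 1.14 CPM in sgPrdx2 livers, a 2.11-fold fall (log2 fold change -1.08, SE 0.22, adjusted p = 0.0463). Of its 50-base stretches, 5.84% were also found in Cxcl3, which had 26 counts over all livers and was not tested. Cxcl1, made by hepatocytes and stromal cells, was the most abundant of the group and varied within both groups, with 20.8, 45.6 and 47.9 CPM in sgCtrl and 40.4, 49.9 and 25.7 CPM in sgPrdx2 livers. The log2 fold change was 0.02 with a wide 95% interval from -0.77 to 0.81. Cxcl5 was at 1.58, 3.74 and 2.24 CPM in sgCtrl and 1.73, 2.48 and 1.14 CPM in sgPrdx2 livers (log2 fold change -0.49, adjusted p = 0.462). The count of Cxcl2 per 100 counts of Cxcl1 was 11.1, 6.43 and 6.20 in sgCtrl and 3.21, 2.89 and 4.42 in sgPrdx2 livers.

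Cxcl1 and Cxcl2 are neighbours on chromosome 5 and are shown for the same reason, again as the 250 bases before the RefSeq start in GRCm38.p6, here on the plus strand, chr5:90890995-90891244 for Cxcl1 and chr5:90903649-90903898 for Cxcl2, with NF-kB matches in capitals. The last bases of both stretches lie within the first exon that GENCODE gives.
Cxcl1: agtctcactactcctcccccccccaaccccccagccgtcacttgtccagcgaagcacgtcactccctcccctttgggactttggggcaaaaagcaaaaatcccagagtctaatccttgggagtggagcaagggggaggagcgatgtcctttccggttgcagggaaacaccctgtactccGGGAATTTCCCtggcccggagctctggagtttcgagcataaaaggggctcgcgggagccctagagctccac
Cxcl2: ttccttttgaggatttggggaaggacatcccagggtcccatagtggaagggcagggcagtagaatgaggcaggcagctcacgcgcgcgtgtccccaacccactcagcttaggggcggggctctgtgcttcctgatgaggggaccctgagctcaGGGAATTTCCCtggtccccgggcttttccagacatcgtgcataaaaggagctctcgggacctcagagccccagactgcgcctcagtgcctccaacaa
The same run of 11 bases, in which a match on each strand overlaps, stands in both, 71 bases before the start of Cxcl1 and 97 bases before that of Cxcl2. Motifs were searched on both strands by letters alone, AP-1 as TGANTCA, and NF-kB and the interferon-stimulated response element (ISRE) by their usual consensus. NF-kB matches were found in 10 of the 41 members with an entry (24.4%) and in 8.23% of 27025 genes, AP-1 matches in 6 members (14.6%) and 7.82% of genes, and ISRE matches in 3 members (7.32%) and 3.46% of genes. These 41 members are not the same as the 41 tested. Of the 10 with an NF-kB match, Ccl1, Ccr3, Ccr6 and Cxcl3 were under the filter on low counts. Among the called genes with an entry, Ccr1 and Cxcl2 had an NF-kB match and Cxcl14 an ISRE match. A match describes these letters only.

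The ligands of CCR2, the receptor that brings inflammatory monocytes out of the bone marrow, are Ccl2, Ccl7 and Ccl12, and Ccl8 was grouped with them. None passed the threshold. Means were lower in sgPrdx2 livers for Ccl2, Ccl7 and Ccl8, and for Ccl12, where only the sgCtrl livers were over the filter and a lower direction was thereby set. Ccl2 was at 13.8, 17.4 and 16.8 CPM in sgCtrl and 8.16, 11.6 and 8.81 CPM in sgPrdx2 livers, without overlap (log2 fold change -0.75, SE 0.18, adjusted p = 0.0596). Ccl7 was at 2.72, 3.67 and 3.31 CPM in sgCtrl and 1.299, 2.70 and 1.75 CPM in sgPrdx2 livers, where the nearest values differed by very little (log2 fold change -0.75, adjusted p = 0.166). Ccl12 and Ccl8 were rare, at 0.479 ± 0.278 against 0.169 ± 0.0276 CPM and at 0.660 ± 0.401 against 0.342 ± 0.157 CPM (SD, n = 3), with adjusted p of 0.118 and 0.304. The summed level of the 4 genes was 20.3 ± 2.29 CPM in sgCtrl and 11.9 ± 2.65 CPM in sgPrdx2 livers.

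**Figure D3:**
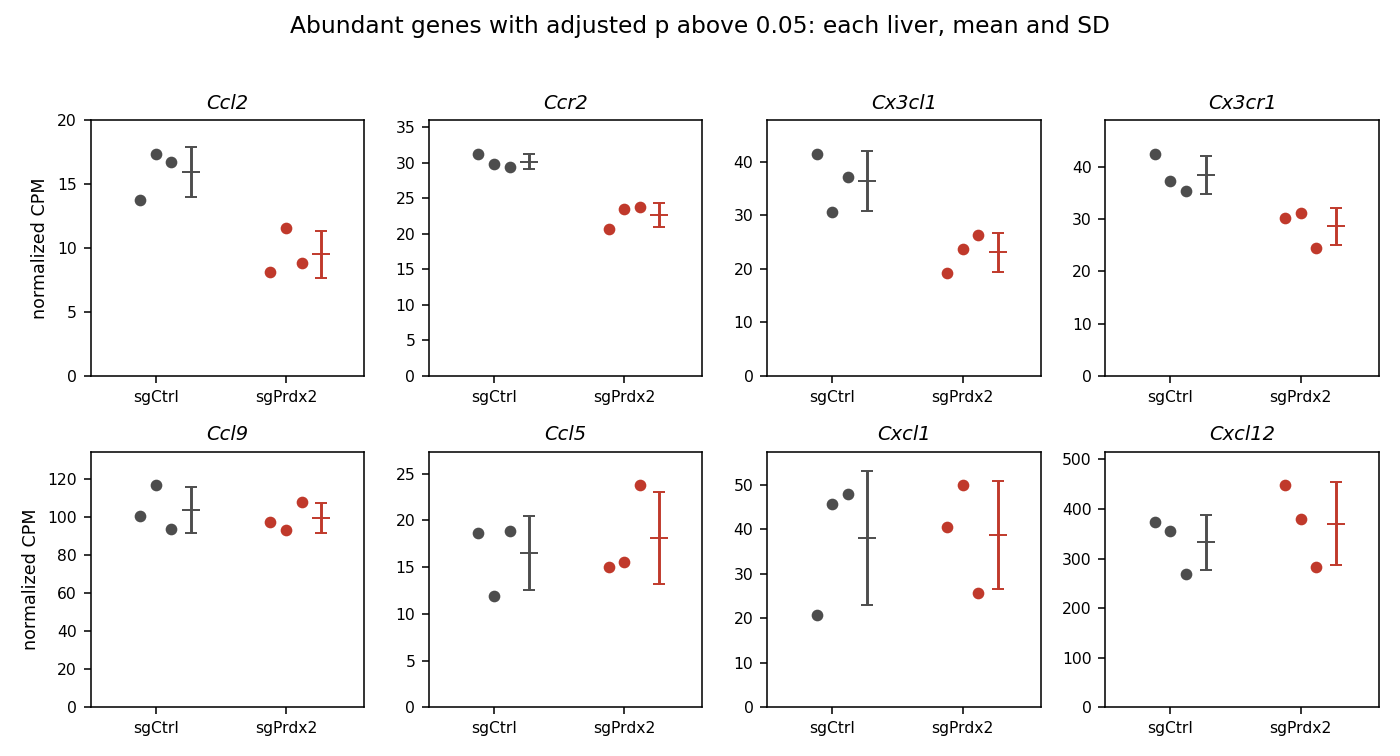
Normalized CPM (y axis, from 0) of 8 abundant chemokine and receptor genes with an adjusted p above 0.05 in each sgCtrl (grey) and sgPrdx2 (red) liver, with the mean and SD of 3 livers beside the points. The upper row (Ccl2, Ccr2, Cx3cl1, Cx3cr1) shows groups that do not overlap, and the lower row (Ccl9, Ccl5, Cxcl1, Cxcl12) groups that do.

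The ligands of CXCR3, which are induced by interferon and draw T and NK cells, did not pass the threshold. Cxcl9 was at 21.9, 27.1 and 35.8 CPM in sgCtrl and 27.4, 31.3 and 31.0 CPM in sgPrdx2 livers (log2 fold change 0.08, 95% interval -0.34 to 0.51). Cxcl10 was at 13.5, 19.4 and 19.7 CPM in sgCtrl and 15.0, 13.5 and 9.09 CPM in sgPrdx2 livers (log2 fold change -0.48, SE 0.23, adjusted p = 0.234). Both overlapped between groups, and exons of Cxcl10 overlap those of Art3 on the other strand. Cxcl11, which GENCODE lists as a polymorphic pseudogene, was at 5.98 ± 1.53 CPM in sgCtrl and 6.29 ± 0.907 CPM in sgPrdx2 livers (SD, n = 3).

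Cx3cl1 and Cxcl16 are chemokines with a membrane anchor, made by endothelial, epithelial and myeloid cells. Cx3cl1 was at 41.5, 30.5 and 37.2 CPM in sgCtrl and 19.2, 23.7 and 26.4 CPM in sgPrdx2 livers, without overlap and above the threshold (log2 fold change -0.66, SE 0.17, adjusted p = 0.0702). Cxcl16, the ligand of CXCR6, was at 93.5, 76.6 and 81.3 CPM in sgCtrl and 66.1, 70.7 and 84.5 CPM in sgPrdx2 livers, which overlapped (log2 fold change -0.18, 95% interval -0.53 to 0.16). Xcl1, the T and NK cell ligand of XCR1, was at 2.67 ± 0.920 CPM in sgCtrl and 2.38 ± 0.947 CPM in sgPrdx2 livers (SD, n = 3).

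Ligands that organize lymphoid tissue and mucosa gave no call. Cxcl12 was at 373, 356 and 270 CPM in sgCtrl and 448, 381 and 282 CPM in sgPrdx2 livers (log2 fold change 0.15, 95% interval -0.33 to 0.64). Among the CCR7 ligands, Ccl21a ranged from 1.20 to 6.49 CPM within the sgCtrl livers alone, and Ccl19 was at 0.885 ± 0.292 and 0.570 ± 0.382 CPM (SD, n = 3). Both share 71.6% and 52.0% of their 50-base stretches with near-identical genes, so their counts are uncertain. Ccl22 and Ccl17, the dendritic cell ligands of CCR4, differed by 0.03 and 0.19 on the log2 scale (adjusted p = 0.946 and 0.843). Ccl27a was the only tested member whose sgPrdx2 livers (3.74, 3.55 and 5.62 CPM) all lay above its sgCtrl livers (2.06, 2.65 and 2.42 CPM), where 16.7% of all genes tested did so (log2 fold change 0.85, SE 0.24, adjusted p = 0.0832). It shares 45.0% of its stretches with copies and its exons overlap Il11ra1 on the other strand, so reads of these genes may not be told apart. Log2 fold changes of Ccl20, Ccl24, Ccl25, Ccl28 and Cxcl13 lay between -0.39 and 0.16, with adjusted p from 0.517 to 0.992.

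Among the receptors described, Ccr1 fell. This receptor of monocytes and neutrophils was at 7.86, 4.49 and 6.05 CPM in sgCtrl and 2.69, 3.05 and 2.49 CPM in sgPrdx2 livers, a 2.23-fold fall (log2 fold change -1.16, SE 0.23, adjusted p = 0.0466). The sgCtrl livers spread more than the sgPrdx2 livers, and the groups were apart. Ccr2 was at 31.3, 29.9 and 29.4 CPM in sgCtrl and 20.7, 23.4 and 23.8 CPM in sgPrdx2 livers, with little spread and no overlap, and an adjusted p of 0.0804 (log2 fold change -0.41, SE 0.11). Per 100 counts of Ccr2 there were 25.1, 15.0 and 20.6 counts of Ccr1 in sgCtrl and 13.0, 13.0 and 10.5 in sgPrdx2 livers. The count of Ccr1 was thus lower also beside Ccr2.

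Of the other receptors, 4 had groups that did not overlap, where 17.5% of all genes tested lay lower without overlap, and none passed the threshold. Cx3cr1, the fractalkine receptor of monocytes and macrophages, was at 42.5, 37.3 and 35.5 CPM in sgCtrl and 30.1, 31.2 and 24.5 CPM in sgPrdx2 livers (log2 fold change -0.43, SE 0.14, adjusted p = 0.119). Cxcr4, the receptor of Cxcl12, was at 12.2, 11.6 and 11.0 CPM in sgCtrl and 9.07, 9.02 and 5.80 CPM in sgPrdx2 livers (log2 fold change -0.54, SE 0.19, adjusted p = 0.142). Both receptors had lower levels in each sgPrdx2 liver, while Cxcl12 itself did not. Cxcr2, the neutrophil receptor, was rare at 0.548, 1.20 and 0.609 CPM in sgCtrl and 0.365, 0.499 and 0.307 CPM in sgPrdx2 livers (log2 fold change -0.98, SE 0.39, adjusted p = 0.176), and Ccr9, the receptor of Ccl25, was at 1.41 ± 0.470 against 0.843 ± 0.235 CPM (SD, n = 3, adjusted p = 0.219). Cxcr6, Xcr1 and Cxcr3, carried by T cells and cross-presenting dendritic cells, overlapped between groups, at -0.48, -0.43 and -0.27 on the log2 scale (adjusted p = 0.231, 0.353 and 0.558). Cxcr5 and Ccr7, the receptors that guide B cells and dendritic cells in lymphoid tissue, had log2 fold changes of -0.06 (95% interval -0.55 to 0.43) and 0.07 (95% interval -0.37 to 0.52). Exons of Cxcr5, Cx3cr1 and Ccr9, and of the ligands Cxcl11, Cxcl16, Ccl25 and Xcl1, overlap other genes, mostly on the other strand, and reads of such pairs cannot be told apart where strand was not used.

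A stretch of chromosome 9 from Ccr9 to Ccr2 (GRCm38, chr9:123678439-124113557) holds the receptor genes Ccr9, Cxcr6, Xcr1, Ccr1, Ccr3 and Ccr2. The 5 of them that were tested all had values below 0, from -1.16 to -0.41, and Ccr1 was called. Of all genes tested, 51.7% were below 0 and 3.33% were called. The genes of these stretches are the members already described above, and an effect of position was not tested. On chromosome 11, the 4 tested genes from Ccl2 to Ccl1 (Ccl12 with the limit of the filter) were below 0 with no call, and 4 of the 5 from Ccl5 to Ccl4 were below 0 with 2 calls. Of the 3 tested CXC ligands on chromosome 5 from Cxcl9 to Cxcl11, only Cxcl10 was below 0 with these scaling factors, as Cxcl9 and Cxcl11 were too when scaled by total counts or housekeeping genes.

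On a scale per length (CPM divided by the kilobases of all annotated exons), Cxcl12 and Ccl6 led the ligands in sgCtrl livers at 40.7 ± 6.78 and 40.2 ± 5.06 CPM per kb, followed by Ccl9 at 34.0 ± 3.89 and Cxcl16 at 27.7 ± 2.88 CPM per kb (SD, n = 3). Cxcl12 and Ccl6 did not differ beyond their spread. In sgPrdx2 livers Cxcl12 led at 45.3 ± 10.2, before Ccl9 at 32.6 ± 2.55, Cxcl16 at 24.4 ± 3.17 and Ccl6 at 21.0 ± 4.65 CPM per kb (SD, n = 3). Cxcl14 was at 21.5 ± 2.40 CPM per kb in sgCtrl, beside Cxcl1 at 20.3 ± 8.02, and at 10.9 ± 1.74 CPM per kb in sgPrdx2 livers, where Cxcl1 was at 20.6 ± 6.50. The receptors were lower, with Cx3cr1 first at 8.53 ± 0.812 and Cxcr4 next at 6.42 ± 0.338 CPM per kb in sgCtrl livers, and the same genes first at 6.35 ± 0.797 and 4.41 ± 1.04 CPM per kb in sgPrdx2 livers (SD, n = 3).

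The 14 members under the filter were rare in both groups. They were the ligands Ccl1, Ccl11, Ccl21b, Ccl26, Ccl27b, Cxcl3, Cxcl15 and Cxcl17 and the receptors Ccr3, Ccr4, Ccr6, Ccr8, Ccr10 and Cxcr1. Their counts over all 6 livers ran from 0 for Ccl26 and Ccl27b, which allows up to 3 counts in a library, to 67 for Ccr3, the eotaxin receptor of eosinophils. Ccl27b and Ccl21b share 98.1% and 100% of their stretches with copies. The count of 0 for Ccl27b and of 3 for Ccl21b may thus reflect how shared reads were assigned. They were left out of the test reported here. In the edgeR fit without a filter 12 of them, all but Ccl26 and Ccl27b, had values, and none was called (smallest unadjusted p = 0.1202, for Ccl11, with adjusted p from 0.448 to 0.985 over the 12).

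Among 30 genes that pass on or damp the receptor signal, 6 fell and none rose, or 20% against 1.54% of all genes tested called lower. Values were below 0 for 28 of the 30 (93.3%, median -0.45, against 51.7% of all genes), and the sgPrdx2 livers lay under all sgCtrl livers for 21 (70.0%, against 17.5% of all genes tested). With 1 liver left out, 0 to 5 of the pathway genes were called. The largest fall was that of Rgs1, a brake on G protein signalling in leukocytes, from 20.5 ± 2.63 to 7.54 ± 1.21 CPM (SD, n = 3, log2 fold change -1.44, SE 0.17, adjusted p = 0.0313). Pik3r5 and Pik3cg, the adaptor and catalytic subunits of the phosphoinositide kinase that receptors activate, fell with log2 fold changes of -0.83 and -0.73 (adjusted p = 0.0358 and 0.0480). Dock2, which activates Rac in migrating leukocytes, Was, which drives actin branching in blood cells, and Prkcd, a protein kinase C found in many cell types, fell with log2 fold changes of -0.72, -0.69 and -0.85 (adjusted p = 0.0394, 0.0486 and 0.0455). The list was written with earlier results of these data known, and several of its genes are made by blood cells above all. Rac1 and Gnb2 were the 2 with values above 0 (0.07 and 0.33, adjusted p = 0.740 and 0.376), while Gnb1, a relative of Gnb2, was at -0.24. Of 8 atypical receptors and chemokines with other symbols none was called, and the smallest p was that of Ccrl2 (log2 fold change -0.51, SE 0.14, adjusted p = 0.0877).

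Markers of the cells that carry the receptors moved with them in part. Macrophage markers were below 0 in 8 of 8 genes, and Mpeg1 and Gpnmb, both of phagocytes, fell from 491 to 278 and from 931 to 440 CPM (adjusted p = 0.0394 and 0.0373). Their summed level was 4126 to 4816 CPM in sgCtrl and 2715 to 3757 CPM in sgPrdx2 livers. Ccr1 was at 44.7% of its sgCtrl mean, Gpnmb at 47.2% and Mpeg1 at 56.6%, while the macrophage marker sum, to which Lyz2 (at 79.6%) gave the most CPM, was at 68.7%. Of 6 monocyte markers, 5 were below 0 and Vcan and Itgam fell to 47.9% and 42.2% of the sgCtrl mean (log2 fold changes -1.06 and -1.24, adjusted p = 0.0483 and 0.0394), while the list's sum of 987 to 1385 CPM in sgCtrl and 1004 to 1611 CPM in sgPrdx2 livers was set by Fn1, which hepatocytes also make. The 6 Kupffer cell markers were all below 0 without a call, with sums of 150 to 539 CPM in sgCtrl and 172 to 296 CPM in sgPrdx2 livers that overlapped.

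Markers of the other leukocytes gave 1 call. Cd8a fell from 6.06 ± 0.599 to 3.39 ± 0.447 CPM (SD, n = 3, log2 fold change -0.84, adjusted p = 0.0486), while the T cell list as a whole, with 7 of 8 genes below 0, summed to 33.5 to 47.1 CPM in sgCtrl and 28.3 to 34.4 CPM in sgPrdx2 livers. NK cell markers (6 of 6 below 0, 5.98 to 8.98 against 4.26 to 6.49 CPM), neutrophil markers (4 of 6 tested below 0, 22.8 to 30.8 against 20.4 to 24.2 CPM) and dendritic cell markers (5 of 7 below 0, 28.9 to 37.9 against 26.0 to 31.3 CPM) overlapped in sum and gave no call. B and plasma cell markers were below 0 in 2 of 6 genes, with no call. Of the neutrophil markers Ly6g was near 0 (0.0148 CPM in sgCtrl, 0 in sgPrdx2 livers), and of 6 eosinophil and mast cell markers only Siglecf was tested and Epx was at 0 in all livers.

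Markers of the liver's own cells moved as well. All 8 hepatocyte markers were above 0 and 5 rose, with sums of 76848 to 82622 CPM in sgCtrl and 133416 to 178379 CPM in sgPrdx2 livers. Of 6 sinusoidal endothelial markers 5 were below 0 and Pecam1 fell (log2 fold change -0.77, adjusted p = 0.0423), Stab2 was at 0.27, and the sums of 202 to 235 CPM in sgCtrl and 149 to 230 CPM in sgPrdx2 livers overlapped. The 6 bile duct markers were below 0 and Cldn4 fell (log2 fold change -0.83, adjusted p = 0.0394), 5 of 7 stellate cell markers were below 0 with no call, and the stellate cell sum was 1131 to 1279 CPM in sgCtrl and 880 to 938 CPM in sgPrdx2 livers. In all, 12 of 81 tested markers were called, 7 lower and 5 higher (14.8%, against 3.33% of all genes tested). With 1 liver left out, 0 to 10 were called. The marker lists were chosen with earlier results of these data known. The part of these shifts in the levels of chemokines and receptors was not tested.

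**Figure D4:**
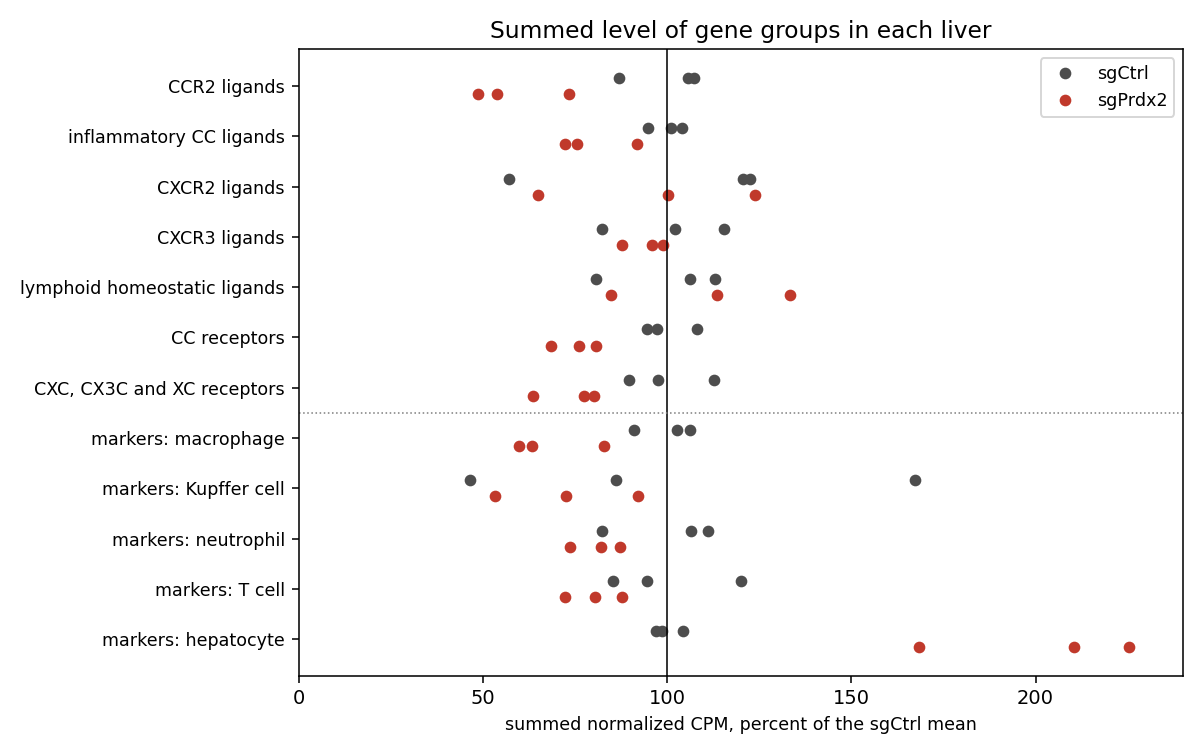
Summed normalized CPM of groups of chemokine and receptor genes (above the dotted line) and of marker lists (below it) in each liver, as a percent of the sgCtrl mean of the same group (x axis), with sgCtrl in grey and sgPrdx2 in red. Receptors, CCR2 ligands, inflammatory CC ligands and macrophage markers have sgPrdx2 livers below all sgCtrl livers, CXCR2 and CXCR3 ligands overlap, and hepatocyte markers lie above, at 201% on average.

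**Figure D5:**
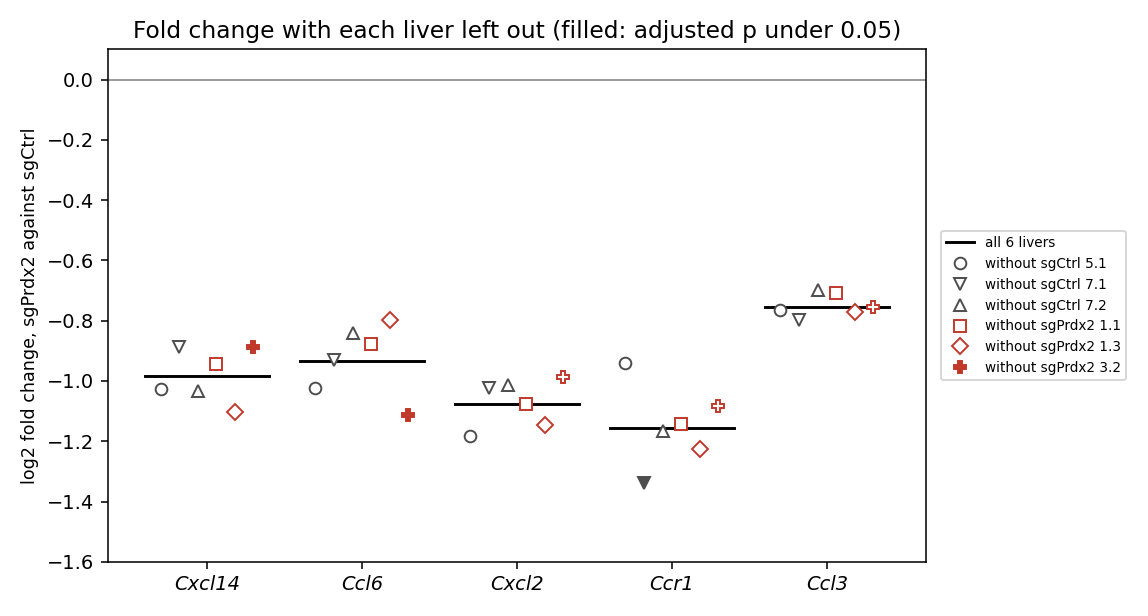
Log2 fold change (y axis) of the 5 called genes with all 6 livers (black line) and with each liver left out (symbols, filled where the adjusted p was under 0.05). All values lie between -1.34 and -0.70, and few symbols are filled.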

How the data were processed

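Livers of 3 sgCtrl and 3 sgPrdx2 mice were grouped by their sample labels. The authors deposited 2 tables. The first holds raw read counts for 52459 genes per liver, with HISAT2, HTSeq, DESeq2 and the build GRCm38 named in the submitters' processing notes. Versions, annotation and strand setting are not given in the sources used here. The second holds the authors' own DESeq2 comparison (mean level, fold change, p-values) and was not used.

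The test was edgeR 4.0.16 under R 4.3.3 (filterByExpr with a minimum count of 10, TMM, glmQLFit, glmQLFTest), and p-values were adjusted by Benjamini-Hochberg over all 17032 genes tested, with a threshold of 0.05. The biological coefficient of variation was 0.213. On data simulated from these libraries (17032 genes, 200 changed 4-fold) edgeR recovered 196 genes with 4 others. The called members fell 1.69-fold to 2.23-fold, and recovery of changes of that size was not tested. The most alike pair of livers differed by a chi-square of 34.7 per degree of freedom, so none was a copy. The study calls the livers biological replicates.

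Exon lengths, positions and shared stretches of 50 bases came from GENCODE vM21 (GRCm38), in which all 55 members described were found, and upstream bases from RefSeq (GRCm38.p6). Of 56 genes that fit the symbol rule, 1 stayed in the fit but is not reported here. Members, roles, pathway and marker lists were chosen with earlier results of these data known. Named genes were Prdx2, the members, the called pathway genes with up to 3 of smallest p in each direction, and of each marker list those called and up to 2 of highest level. Other genes named were chosen after their values were seen. Alternatives were RLE and upper-quartile factors, total counts, 6 housekeeping genes, DESeq2 1.42.0, other filters, another threshold and leaving out each liver.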

Additional observations from a re-analysis of the deposited data

How the results depend on the processing

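The log2 fold changes of the 5 called genes stayed below 0 under every alternative run, and relative to the median of all genes they lay between -1.32 and -0.68. Calls among members numbered 4 with RLE factors (Ccl3 was lost), 5 with upper-quartile factors or with at least 10 counts in every liver, 7 without a filter, 15 with total counts, and 9 each with housekeeping scaling, DESeq2 or an adjusted p under 0.10. Leaving out 1 liver gave 0 to 2. Ligand calls numbered 10 with total counts and 7 each with housekeeping scaling, DESeq2 or the 0.10 threshold, and 0 to 2 with a liver left out. Receptor calls numbered 5 with total counts, 2 each with housekeeping scaling, DESeq2 or the 0.10 threshold and 0 to 1 with a liver left out. Pathway calls numbered 28 with total counts, 19 with housekeeping scaling, 13 with DESeq2 or the 0.10 threshold and 0 to 5 with a liver left out. Marker calls numbered 30, 20 and 20 with total counts, housekeeping scaling and DESeq2 and 0 to 10 with a liver left out.

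Over all genes 3247 were called with total counts (3041 lower, 206 higher), 989 with housekeeping scaling (919 lower, 70 higher), 2066 with DESeq2, 1128 without a filter, 1767 at the 0.10 threshold and 0 to 619 with a liver left out, against 567 (262 lower, 305 higher). Fewer livers were fitted in the last case, and the cause of the other shifts was not tested. With total counts and housekeeping scaling the median log2 fold change was -0.65 and -0.66 for ligands and -0.81 and -0.82 for receptors, and the log2 ratio of sums was -0.48 and -0.48 for ligands and -0.80 and -0.80 for receptors, which followed the shift of all genes. Without a filter the receptor median was -0.28 over all 17 receptors and -0.44 over the 11 tested otherwise. The ligand median was -0.19 without a filter and -0.19 with at least 10 counts in every liver, against -0.29. With a liver left out the medians ran from -0.45 (without 1.3) to -0.18 (without 1.1) for ligands and from -0.58 to -0.35 for receptors.

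Signs reversed for Prdx2 and for members near 0, none of them called. With total counts and housekeeping scaling the values were -0.37 and -0.38 for Prdx2, -0.21 and -0.24 for Ccl17, -0.36 and -0.37 for Ccl22, -0.21 and -0.21 for Ccl25, -0.24 and -0.22 for Ccl28, -0.26 and -0.26 for Ccl5, -0.31 and -0.32 for Ccr7, -0.32 and -0.30 for Cxcl1, -0.29 and -0.29 for Cxcl11, -0.21 and -0.20 for Cxcl12, and -0.29 and -0.28 for Cxcl9. Prdx2 was at -0.0046 with upper-quartile factors and -0.0050 without a filter, and Ccl24 at 0.0021 with RLE factors and 0.0076 with DESeq2. With a liver left out, signs turned for Prdx2 (-0.052, -0.0081 and -0.17 without sgCtrl liver 5.1 or 7.1 or sgPrdx2 liver 3.2, range -0.17 to 0.13), Ccl17 (-0.056 without 7.1, range -0.49 to 0.63), Ccl22 (-0.083 without 7.1 and -0.087 without 7.2, range -0.12 to 0.29), Ccl24 (0.22 without 1.3, range -0.42 to 1.13), Ccl28 (-0.0049 without 7.2 and -0.12 without 1.3, range -0.18 to 0.48), Ccl5 (-0.056 without 7.1, range -0.10 to 0.25), Ccl9 (0.0036 without 1.3, range -0.13 to 0.033), Ccr7 (range -0.12 to 0.19), Cxcl1 (-0.0093 without 1.1 and -0.19 without 1.3, range -0.27 to 0.25), Cxcl11 (-0.026 without 1.1, range -0.12 to 0.24), Cxcl12 (range -0.0048 to 0.33), Cxcl13 (range -0.40 to 0.032), Cxcl9 (range -0.075 to 0.29) and Xcl1 (0.026 without 1.3, range -0.52 to 0.14).

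No paired analysis was possible because the groups share no replicate number in the labels. With 3 livers a group an exact permutation test cannot go below 0.1, and 14 members were under the filter on low counts.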
